A study of Mus musculus with 20 samples.

Results

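Oxidative phosphorylation is carried out by protein complexes of the inner mitochondrial membrane. Complex I (NADH dehydrogenase), complex III (the cytochrome bc1 complex) and complex IV (cytochrome c oxidase) pass electrons to oxygen and pump protons, and complex V (ATP synthase) uses the proton gradient to make ATP. Most of their subunits are encoded in the nucleus, and a small set of core subunits is encoded in mitochondrial DNA, so that assembly draws on both genomes. Resting B cells have a low demand for ATP, and the transcription factor Myc is known to raise the expression of many mitochondrial genes.

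The nuclear-encoded respiratory chain genes were taken as all rows of the count table whose symbol begins with Ndufa, Ndufb, Ndufc, Ndufs, Ndufv, Uqcr, Cox4, Cox5, Cox6, Cox7, Cox8 or Atp5. This gave 93 of 37620 genes, after 7 rows named as -ps pseudogenes were left out. By complex there were 47 genes for complex I, 8 for complex III, 21 for complex IV and 17 for complex V. Of the 93, 71 encode subunits in general use (36, 8, 11 and 16 for complexes I, III, IV and V), and the others are assembly factors, copies or paralogs, and tissue-restricted isoforms of complex IV. Ndufa4 was counted with complex IV, of which its protein is a subunit. The genes Ndufa11b, Ndufb4c, Ndufs6b and Cox6c2 are annotated as processed pseudogenes although their symbols lack the -ps ending.

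Polyadenylated RNA was sequenced on Ion Proton instruments from C57BL/6 mouse cells that carry B220, the B cell form of the surface protein CD45, pulled out with antibody-coated microbeads. The 3 groups were normal spleen (n = 4), lymphomas labelled VavPBcl2/vector (n = 8, here vector lymphomas) and lymphomas labelled VavPBcl2/Myc (n = 8, here Myc lymphomas). VavPBcl2 is a transgene that expresses the anti-apoptotic gene Bcl2 from Vav promoter sequences in blood cells, so both lymphoma groups carry it and the normal group is not labelled as carrying it. The labels do not say whether samples of a group came from separate animals or tumours, and each p-value therefore reflects sample-to-sample spread that may in part be technical. The ages of the mice are not given in the sources used here.

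Counts assigned to genes ranged from 28.7 M to 56.3 M per sample (M, counts in units of 1000000). The labels give each sample 1 of 4 instruments and that instrument's run number, but no date. Within each instrument the numbers fall into a lower and a higher block: 88 to 90 and 96 on HAN, 81 to 83 and 89 to 91 on LEI, 75 to 78 and 85 to 86 on LUK, and 82 to 85 and 90 on YOD. The higher blocks, here called later runs, hold normal replicate 1 and vector replicates 1 to 6, and the lower blocks, here called earlier runs, hold the other 13 samples, among them every Myc lymphoma. Vector replicates 7 and 8 are the 2 vector lymphomas of the earlier runs, and they also share a title prefix that no other sample has, so run and source cannot be told apart within that group. Myc itself was at 313 to 1646 CPM (counts scaled to a TMM library size of 1000000) in Myc lymphomas, 48.3 to 226 CPM in vector lymphomas and 179 to 343 CPM in normal samples. The mouse Bcl2 row overlapped across groups, at 75.6 to 213, 99.1 to 154 and 116 to 138 CPM, and whether it counts transgene reads is not given. Markers of B cells were detected in every sample, but 8 of the 9 on the list fell in Myc against vector lymphomas. Their summed level was 6759 to 7966 CPM in normal samples, 6315 to 9952 CPM in vector lymphomas and 1792 to 5572 CPM in Myc lymphomas. In bulk samples, fewer cells of a type and less RNA per cell cannot be told apart.

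Promoter sequences of 4 members are shown because they carry the motifs of factors tied to this gene class: the E-box CACGTG bound by Myc and Max, the NRF1 core GCGCATGCG, and CCGGAAG of the ETS family factor GABP. The sequences are from RefSeq on GRCm38.p6, 5′ to 3′ on the gene's own strand (the minus strand for all 4), with the motif in capitals, and position -1 is the base before the transcription start. Atp5g1 encodes a c ring subunit of complex V, and its stretch (chr11:96075632-96075781, E-box at position -44) ends at position -1. Ndufv1 encodes the NADH-binding subunit of complex I (chr19:4012795-4012944, E-box at position -169). Uqcr11 encodes a small subunit of complex III (chr10:80406822-80406971, ETS motif at position -66), and Cox6a1 encodes a subunit of complex IV (chr5:115348991-115349140, overlapping NRF1 cores from position -162).
Atp5g1: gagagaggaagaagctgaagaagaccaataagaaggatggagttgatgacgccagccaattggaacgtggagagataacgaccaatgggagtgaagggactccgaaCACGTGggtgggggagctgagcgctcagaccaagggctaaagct
Ndufv1: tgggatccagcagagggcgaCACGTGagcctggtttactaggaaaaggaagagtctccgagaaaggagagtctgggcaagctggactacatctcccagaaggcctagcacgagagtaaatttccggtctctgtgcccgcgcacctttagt
Uqcr11: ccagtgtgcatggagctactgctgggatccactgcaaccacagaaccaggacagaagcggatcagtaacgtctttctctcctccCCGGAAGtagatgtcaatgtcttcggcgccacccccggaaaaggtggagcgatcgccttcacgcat
Cox6a1: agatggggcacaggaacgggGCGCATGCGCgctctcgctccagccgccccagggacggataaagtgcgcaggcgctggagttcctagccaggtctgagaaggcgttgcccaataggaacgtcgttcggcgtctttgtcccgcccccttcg

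Windows from 250 bases before to 50 bases after the start were held for 71 of the 93 members (76 windows). On either strand, the E-box was in 7.89% of the members' windows and in 7.15% of all 32851 windows. The NRF1 core was in 13.2% of the members' windows against 1.75% of all windows, CCGGAAG in 21.1% against 8.86%, the YY1 motif AAGATGGCG in 10.5% against 1.4%, and CCAAT of NF-Y in 42.1% against 37.4%. The NRF1 core and AAGATGGCG were thus several times as frequent in these promoters as in promoters at large, and the E-box was about as frequent. These are matches of letters, not measured binding. In Myc against vector lymphomas the 5 members with an E-box (Atp5g1, Atp5g3, Atp5l, Ndufa7 and Ndufv1) had a median log2 fold change of 1.64. The 63 tested members whose windows lack it had a median of 1.23. For the NRF1 core the same medians were 1.26 and 1.18, and for CCGGAAG 1.11 and 1.24. For AAGATGGCG they were 1.18 and 1.24, and for CCAAT 1.18 and 1.23. Members with and without a motif were not tested against each other, and the E-box median rests on 5 members.

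Respiratory chain genes were higher in Myc lymphomas than in vector lymphomas in all 4 complexes. Of 88 members tested, 72 rose and 0 fell (edgeR quasi-likelihood test, Benjamini-Hochberg adjusted p under 0.05), beside 26.6% of all 17824 tested genes that rose and 21.9% that fell. The members' median log2 fold change was 1.20, a 2.29-fold difference, with a range from -0.38 to 3.54, and the median of all tested genes was 0.08. At an unadjusted p under 0.05, 76 members were called. Counts at this unadjusted threshold, here and below, stand without the share of all genes and are not read as results about the members. In 11 of the 88 members every Myc lymphoma lay above every vector lymphoma, which is 12.5% of members beside 5.12% of all genes, so for most members the groups overlapped in at least 1 sample.

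The difference was smaller within the earlier runs and without 1 sample. The fit within the earlier runs has fewer samples, and its 2 vector lymphomas also share their title prefix, so the parts of run, source and sample number cannot be told apart. Within the earlier runs 8 Myc lymphomas faced vector replicates 7 and 8 alone. There 1 of 89 members rose in Myc against vector, beside 2.97% of all genes, and the median was 0.76. At an unadjusted p under 0.05, 18 members passed, a count with no share of all genes beside it. The 1 member called there was Cox6b2, named after its value was seen. With the run as a term in the fit, 22 members rose (9.2% of all genes), with a median of 0.82. Without Myc replicate 5, 65 of 88 members rose with a median of 0.78. In that fit, by class of transcript length (longest principal transcript), 20.6 to 58.2% of all protein-coding genes rose. The members of these classes rose in 66.7 to 88.9%. Myc replicate 5 had the highest value of all 20 samples in 84 of the 88 tested members, and vector replicate 7 was the highest vector lymphoma in 63.

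**Figure D1:**
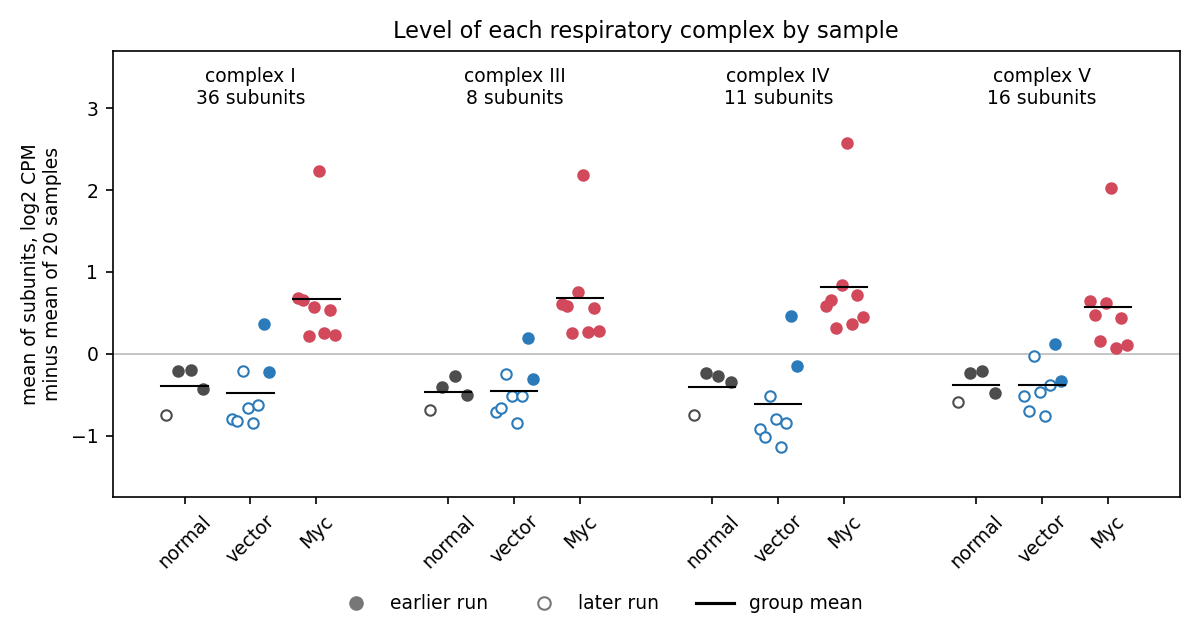
Level of complexes I, III, IV and V in each sample (vertical axis: mean over subunits of log2 CPM minus the mean of the 20 samples), with normal, vector and Myc samples side by side. Filled points are earlier runs, open points later runs and bars group means. Myc replicate 5 stands at 2.03 to 2.57, and the filled vector points (replicates 7 and 8) lie between -0.33 and 0.46.

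Averaged over all 71 subunits, the level relative to the mean of the 20 samples was -0.71, -0.24, -0.22 and -0.44 on the log2 scale in normal replicates 1 to 4. Vector lymphomas ranged from -0.87 to 0.30, with a mean of -0.64 in replicates 1 to 6 and 0.03 in replicates 7 and 8. Myc lymphomas ranged from 0.23 to 2.23, and from 0.23 to 0.65 without replicate 5. Normal samples thus lay within the range of vector lymphomas, and the lowest Myc lymphoma lay below vector replicate 7. Members held 0.478 to 0.579% of the gene counts in normal samples, 0.411 to 0.711% in vector lymphomas and 0.64 to 1.68% in Myc lymphomas, where 1.68% is Myc replicate 5 and the next highest is 0.949%.

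Complex I takes electrons from NADH. Of its 36 subunits, 30 rose in Myc against vector lymphomas, with a median log2 fold change of 1.22. The 7 core subunits, which bind flavin and iron-sulfur clusters and have bacterial counterparts, included 4 that rose (median 0.57), and 26 of the 29 accessory subunits rose (median 1.24). Core and accessory subunits were not tested against each other.

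Ndufc2, a membrane-arm accessory subunit, was measured at 7.92, 19.3, 16.4 and 13.7 CPM in normal replicates 1 to 4. In vector lymphomas Ndufc2 was at 7.06, 9.65 and 27.7 CPM (lowest, median and highest), and in Myc lymphomas at 32.9, 53.9 and 140 CPM. Every Myc lymphoma exceeded every other sample. The log2 fold change of Ndufc2 in Myc against vector was 2.21 ± 0.33 (SE; edgeR adjusted p = 2.3e-05), and within the earlier runs it was 1.36 (adjusted p = 0.085). Ndufa12, an accessory subunit near the NADH-oxidising arm, rose by a log2 fold change of 1.85 ± 0.31 (adjusted p = 7.2e-05), and Ndufb6 by 1.51 ± 0.27 (adjusted p = 0.00013).

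Ndufs1, the largest iron-sulfur core subunit, did not follow this pattern. Its values were 91.7, 57.7, 59 and 63.2 CPM in normal samples, 54.8, 72.8 and 82.2 CPM in vector lymphomas, and 45.7, 68.4 and 102 CPM in Myc lymphomas. The 3 groups overlapped fully. The log2 fold change of Ndufs1 in Myc against vector was -0.06 ± 0.15 (edgeR adjusted p = 0.75). The core subunit Ndufs8 (0.18 ± 0.25, adjusted p = 0.57) and the accessory subunit Ndufb7 (0.37 ± 0.28, adjusted p = 0.29) were not called either. Ndufv1, whose promoter is shown above, rose by 0.57 ± 0.14 (adjusted p = 0.0029).

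Ndufb4 had the largest log2 fold change of all members, 3.54 ± 0.74 (edgeR adjusted p = 0.00065), from low counts. It stood at 1.82, 13.4, 13.1 and 12.8 CPM in normal replicates 1 to 4, at 0.646, 1.53 and 19.1 CPM in vector lymphomas and at 15.6, 29 and 180 CPM in Myc lymphomas. The low values were those of the later runs: normal replicate 1 and vector replicates 1 to 6 were at or below 2.52 CPM, while vector replicates 7 and 8 were at 19.1 and 9.46 CPM. Ndufab1, the mitochondrial acyl carrier protein that is also a subunit of complex I, rose by 0.93 ± 0.23 (adjusted p = 0.0029).

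Among the 8 complex I assembly factors, which build the complex without staying in it, 5 rose (median 0.61). Ndufaf4 was at 24.1, 21.6, 22.7 and 22.1 CPM in normal samples, at 10.5, 13.2 and 22.7 CPM in vector lymphomas and at 26.4, 31.4 and 52.4 CPM in Myc lymphomas. Every Myc lymphoma lay above every other sample. Its log2 fold change in Myc against vector was 1.28 ± 0.17 (edgeR adjusted p = 6.3e-06), the smallest p of the complex I members described here, and it was 0.89 within the earlier runs (adjusted p = 0.078).

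Complex III passes electrons from ubiquinol to cytochrome c. All 8 of its subunits covered by the prefix Uqcr rose in Myc against vector lymphomas, with a median of 1.29. The Rieske iron-sulfur subunit Uqcrfs1 was at 44.3, 71.5, 65.4 and 72.1 CPM in normal samples, at 38, 52.8 and 86.2 CPM in vector lymphomas and at 99.2, 121 and 277 CPM in Myc lymphomas. No Myc lymphoma overlapped another group. Its log2 fold change was 1.35 ± 0.22 (edgeR adjusted p = 4.9e-05), and 0.84 within the earlier runs (adjusted p = 0.17).

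The small accessory subunits of complex III ranged from 0.72 for Uqcrh to 2.09 for Uqcr10, on either side of the 1.35 of Uqcrfs1. Uqcrq, which sits beside cytochrome b, was at 13.5, 23.5 and 52.3 CPM in vector lymphomas and at 55.8, 91.3 and 346 CPM in Myc lymphomas, without overlap, and its log2 fold change was 2.04 ± 0.35 (edgeR adjusted p = 0.0001). Uqcr11 rose by 1.48 ± 0.28 (adjusted p = 0.00022). The matrix-facing core protein Uqcrc1 rose by 0.52 ± 0.18 (adjusted p = 0.022), and the hinge subunit Uqcrh by 0.72 ± 0.28 (adjusted p = 0.04). Without Myc replicate 5, Uqcrh had a log2 fold change of 0.27 and was no longer called (adjusted p = 0.15).

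**Figure D2:**
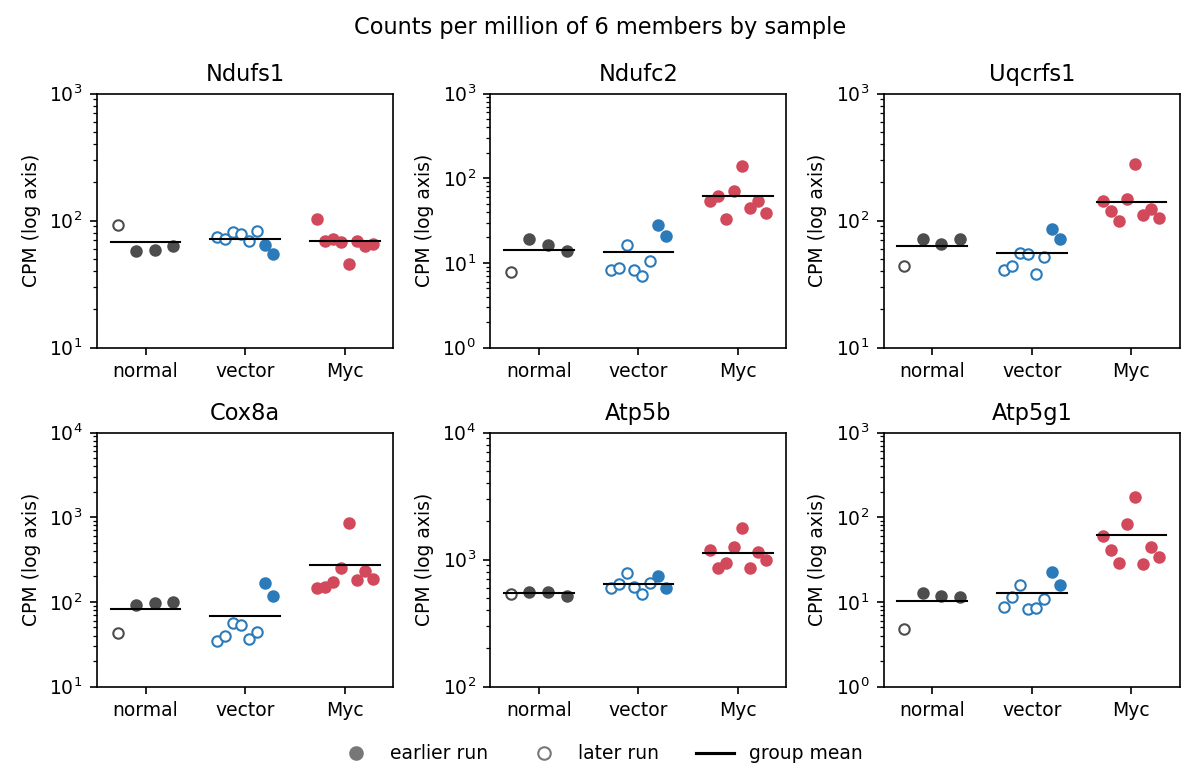
CPM of Ndufs1, Ndufc2, Uqcrfs1, Cox8a, Atp5b and Atp5g1 in each sample (log axis), with points filled for earlier runs and open for later runs and bars at group means. Ndufs1 overlaps across groups, whereas for Ndufc2, Uqcrfs1, Atp5b and Atp5g1 the lowest Myc lymphoma lies above the highest vector lymphoma.

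Complex IV reduces oxygen. All 11 of its subunits in general use rose in Myc against vector lymphomas, with a median of 1.48. Cox6b1, which faces the intermembrane space, was at 58.4, 57.8, 57.4 and 65 CPM in normal samples, at 18.5, 33.2 and 138 CPM in vector lymphomas and at 111, 142 and 632 CPM in Myc lymphomas. The highest vector lymphoma lay within the Myc range. The log2 fold change of Cox6b1 was 2.09 ± 0.41 (edgeR adjusted p = 0.00039) and, within the earlier runs, 0.95 (adjusted p = 0.35).

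Cox8a, the small transmembrane subunit, was at 43.5, 92, 96.2 and 101 CPM in normal samples, at 34.2, 49 and 168 CPM in vector lymphomas and at 147, 185 and 865 CPM in Myc lymphomas, and it rose by 1.99 ± 0.41 (edgeR adjusted p = 0.00058). Cox7a2 rose by 1.90 ± 0.35 (adjusted p = 0.00021), Ndufa4 by 1.60 ± 0.38 (adjusted p = 0.0017), Cox5b by 1.48 ± 0.32 (adjusted p = 0.00097), and Cox6a1 by 1.40 ± 0.33 (adjusted p = 0.0016). Cox5a (1.17 ± 0.30), Cox4i1 (1.11 ± 0.29) and Cox6c (0.71 ± 0.22) rose less. Cox4i1 and Cox5a form the regulatory part of the enzyme around its catalytic core.

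Complex IV has isoforms tied to particular tissues. Of 7 restricted isoforms, Cox7b2, Cox8b and Cox8c had no count in any sample, Cox7a1, the heart and muscle form, was too low to test over all samples (at most 0.141, 0.274 and 2.45 CPM in normal, vector and Myc samples, with 2.45 CPM in Myc replicate 5 and at most 0.425 CPM in the other Myc lymphomas; within the earlier runs its log2 fold change in Myc against vector was 1.06, edgeR adjusted p = 0.73), and 3 were tested. Cox6b2, the testis form, was at 0.438, 1.45, 0.349 and 0.731 CPM in normal samples, at 0.928, 2.07 and 3.8 CPM in vector lymphomas and at 2.27, 10.6 and 56.5 CPM in Myc lymphomas. Its log2 fold change was 2.76 ± 0.51 in Myc against vector (edgeR adjusted p = 0.0002), 3.92 within the earlier runs (adjusted p = 0.036), and 4.37 ± 0.74 in Myc against normal (adjusted p = 0.00017).

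Cox6a2, the heart and skeletal muscle form, was at 0.449, 1.47 and 1.91 CPM in vector lymphomas and at 0.904, 6.62 and 32 CPM in Myc lymphomas, with overlap, and rose by 2.69 ± 0.58 (edgeR adjusted p = 0.00081). Both stayed far below their general counterparts. Per kilobase of transcript, the mean level in Myc lymphomas was 26.4 CPM for Cox6b2 and 337 CPM for Cox6b1, and 12.3 CPM for Cox6a2 and 551 CPM for Cox6a1. Cox4i2, the lung form, was at most 1.02 CPM in any vector or Myc lymphoma and was not called (log2 fold change -0.24 ± 0.57, adjusted p = 0.75). Cox7a2l was not called (0.29 ± 0.20, edgeR adjusted p = 0.23).

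Complex V makes ATP with a catalytic F1 head, a stalk and a rotating membrane ring of c subunits. Of its 16 subunits 13 rose in Myc against vector lymphomas, with a median of 0.92. By place in the enzyme, 4 of 5 F1 subunits rose (median 0.63), 2 of 3 c ring genes (1.08), 3 of 4 stalk subunits (0.63) and 4 of 4 small membrane subunits (1.46).

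The catalytic subunit Atp5b was among the most abundant members, at 535, 555, 560 and 520 CPM in normal samples, 533, 626 and 789 CPM in vector lymphomas and 853, 1067 and 1788 CPM in Myc lymphomas. All Myc lymphomas lay above all other samples. Its log2 fold change of 0.80 ± 0.16 (edgeR adjusted p = 0.00048) was close to that within the earlier runs, 0.75 (adjusted p = 0.18). Its partner Atp5a1 rose by 0.58 ± 0.13 (adjusted p = 0.0013), again with no overlap. Atp5d, of the central stalk end of F1 (0.42 ± 0.25, adjusted p = 0.17), and the peripheral stalk subunit Atp5h (0.30 ± 0.28, adjusted p = 0.39) were not called, whereas Atp5o, which joins the stalk to F1, rose by 1.76 ± 0.34 (adjusted p = 0.00033).

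Atp5g1, Atp5g2 and Atp5g3 encode the same mature c subunit behind different import signals. Atp5g1 was at 4.8, 12.8, 11.6 and 11.3 CPM in normal samples, at 8.18, 11.1 and 22.7 CPM in vector lymphomas and at 27.8, 42.8 and 174 CPM in Myc lymphomas, with no overlap between Myc lymphomas and the rest. Its log2 fold change was 2.28 ± 0.36 (edgeR adjusted p = 4.8e-05), that of Atp5g3 was 1.08 ± 0.21 (adjusted p = 0.00035), and Atp5g2 was not called (0.66 ± 0.30, adjusted p = 0.074). Atp5g3 was the most abundant of the 3 per kilobase in every group, with a group mean of 145, 159 and 335 CPM in normal, vector and Myc samples. The value for Atp5g1 depended on the transcript used as its length: 13.1 CPM per kilobase in Myc lymphomas with the longest principal transcript (4715 bases) and 89.4 with the median one (691 bases). Atp5l rose by 2.28 ± 0.44 (adjusted p = 0.00032), from 1.36, 3.18 and 7.17 CPM to 5.72, 14.6 and 40.4 CPM, but has 9 near-identical genes that could take its reads.

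**Figure D3:**
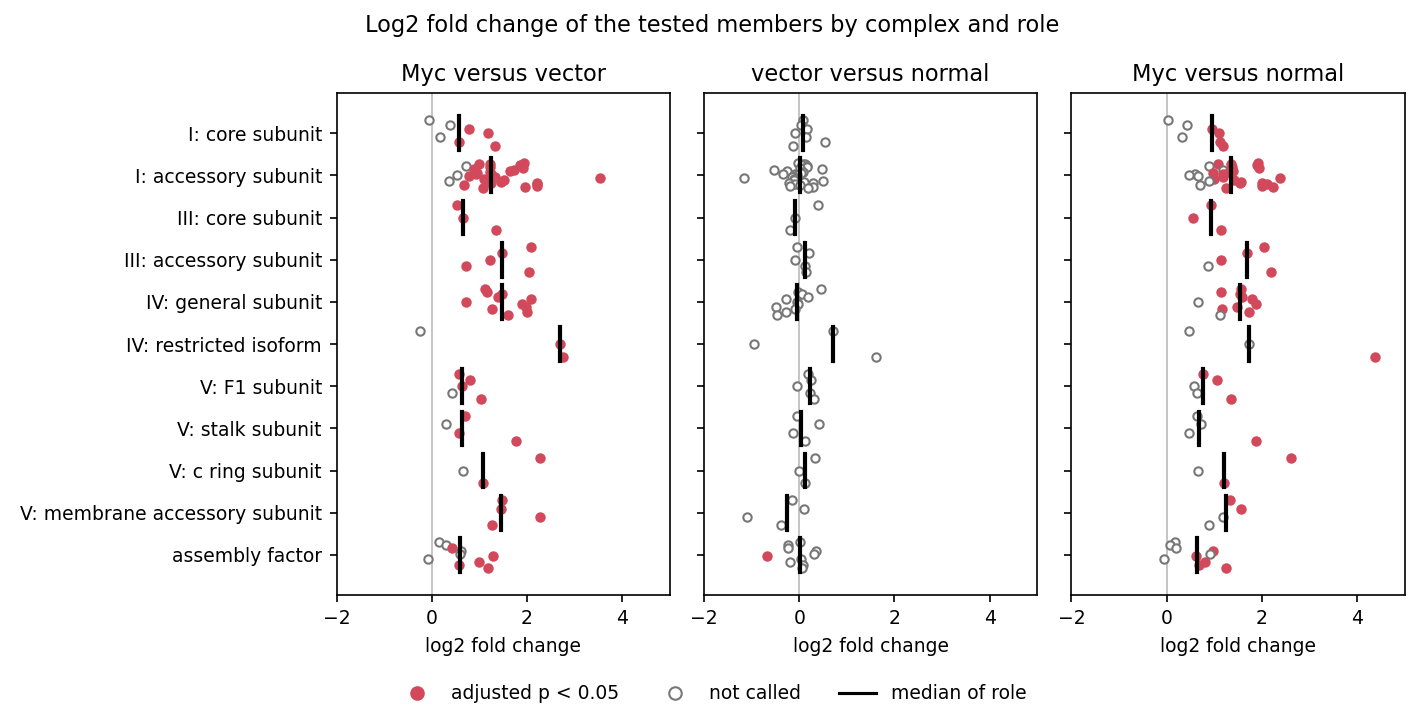
Log2 fold change of tested members (horizontal axis) by complex and role, in Myc against vector, vector against normal and Myc against normal. Red points passed an edgeR adjusted p of 0.05, open points did not, and black bars are medians of a role. In vector against normal the points centre near 0, and in both comparisons with Myc most points lie to the right of 0. The copies and paralogs are not drawn.

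Over all samples, vector lymphomas and normal B220+ cells were close to each other in these genes. Of the 88 members 1 rose and 1 fell in vector against normal, beside 7.46% of all genes that rose and 3.36% that fell, and 5 passed an unadjusted p under 0.05 (DESeq2 called 3 as risen). The count of risen members was 4 without Myc replicate 5, and 2 without Myc replicate 2 or vector replicate 8. Without Myc replicate 5, by class of transcript length (longest principal transcript), 5.08 to 12.4% of all protein-coding genes rose. The members of these classes rose in 0 to 6.25%. No share of all genes is given for the other alternative fits named here. The median log2 fold change was 0.02 over the members and 0.02, 0.05, -0.05 and 0.12 over the subunits of complexes I, III, IV and V. No subunit in general use was called by edgeR in the fit of all 20 samples. Without Myc replicate 5, Ndufv1 and Ndufb7 of complex I were called. Within the earlier runs, where vector replicates 7 and 8 were the only vector lymphomas, the medians were higher, at 0.34, 0.24, 0.49 and 0.23. No subunit was called there, but few genes of any kind were. By class of transcript length, 0 to 0.835% of all protein-coding genes rose in that fit.

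The 2 called members were named after their values were seen. Ndufaf4 fell by 0.67 on the log2 scale (SE 0.20, edgeR adjusted p = 0.036), a call that was lost when normal replicate 1, 2, 3 or 4, vector replicate 1, 2, 4, 5 or 6, or Myc replicate 7 was left out. Ndufa4l2, a paralog of Ndufa4 linked to hypoxia, had 2 counts in all normal samples together, 88 in vector lymphomas and 52 in Myc lymphomas. It was at most 0.0367 CPM in normal samples and at most 0.49 CPM in vector lymphomas, so no fold change is given. Its exons overlap those of Shmt2, and without strand information reads of the 2 genes cannot be told apart. Ndufv1 was at 59.8, 71.4, 64 and 64.7 CPM in normal samples and at 75.7, 93.5 and 123 CPM in vector lymphomas, without overlap. It was not called in the fit of all samples (0.54 ± 0.18, edgeR adjusted p = 0.06). The gene was called without Myc replicate 5 (0.56, edgeR adjusted p = 0.018) and by DESeq2 (0.57, adjusted p = 0.035). With a run term (0.48, edgeR adjusted p = 0.19) and within the earlier runs (0.34, edgeR adjusted p = 0.89) it was not.

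Against normal cells, Myc lymphomas were again higher. In this comparison 58 of 88 members rose and 0 fell, beside 21.5% and 17.9% of all genes, with a median of 1.16. In 51 members (58%) all Myc lymphomas lay above all normal samples, beside 13.1% of all genes. The comparison shares the Myc samples with the one against vector, so the counts are not independent. By complex, 26 of 36 subunits of complex I rose (median 1.18), 7 of 8 of complex III (1.14), 9 of 11 of complex IV (1.54) and 8 of 16 of complex V (0.97).

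This comparison can be made within the earlier runs with 3 normal and 8 Myc samples. There 29 of 89 members rose, beside 12.7% of all genes, and the median was 1.07. With a run term 50 rose (20.6% of all genes), with a median of 1.01. Without normal replicate 1, which was the lowest normal sample in 55 of the 88 members, 43 of 88 members rose. The count for complex IV went from 9 to 5. That fit has fewer normal samples, and no share of all genes is given for it. The drop is therefore not read as a result about the members. Members with small p against normal included Atp5g1 (2.61 ± 0.49, edgeR adjusted p = 0.00039), Uqcrq (2.19 ± 0.46, adjusted p = 0.0011) and Ndufc2 (2.11 ± 0.43, adjusted p = 0.00079). Ndufs1 again differed little (0.03 ± 0.18, adjusted p = 0.92).

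The members' fold changes moved with transcript length. With a gene's longest principal transcript as its length, the median log2 fold change in Myc against vector lymphomas of members of up to 600, over 600 to 1000, over 1000 to 2000 and over 2000 bases was 1.56, 1.24, 0.69 and 0.85 (18, 32, 27 and 8 members). All protein-coding genes of the same classes had medians of 1.53, 0.85, 0.33 and -0.17. In the shortest class the medians of members and of all genes were close, while 18 of 18 members (100%) rose beside 68% of all protein-coding genes and 59.6% of those that are neither members nor ribosomal protein genes. In the longer classes the members' medians lay above those of all genes. In vector against normal, all protein-coding genes of these classes had medians of -0.04, 0.03, 0.07 and -0.00. Within the earlier runs these were 0.50, 0.30, 0.18 and -0.07, and those of members 0.51, 0.37, 0.27 and 0.10. In Myc against vector within the earlier runs, members and all genes of up to 600 bases were at 0.92 and 0.94. These differences were not tested.

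The medians of the shortest class depended on how length was defined. A second definition, the median length of a gene's transcripts, was added after the first values had been seen, because the first gave Atp5g1 a length of 4715 bases. It gave members medians of 1.51, 1.17, 0.65 and 0.79, and all protein-coding genes 0.94, 0.55, 0.19 and -0.21. In the class of up to 600 bases the members' median was then above that of all genes, where under the first definition the medians were close, and 93.9% of members rose beside 52.9% of all genes. Under both definitions the median of all protein-coding genes fell with each step in length. The share of gene counts in genes of up to 600 bases (first definition) was 0.615 to 1.4% in normal samples, 0.553 to 1.95% in vector lymphomas and 1.97 to 7.54% in Myc lymphomas, with 7.54% in Myc replicate 5. The part of transcript length in the members' differences was not tested.

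**Figure D4:**
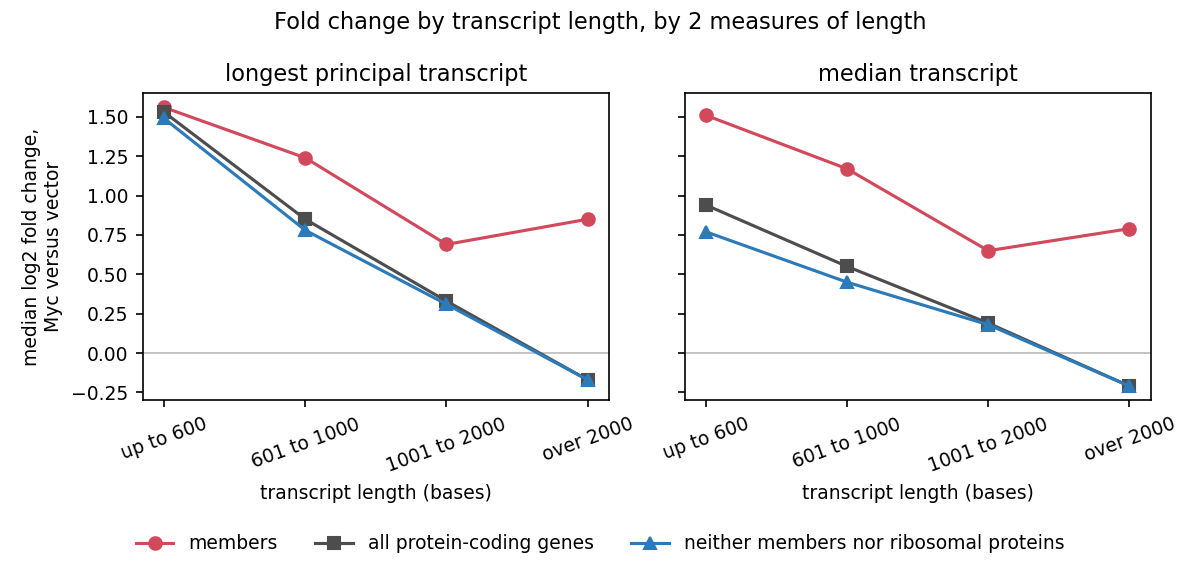
Median log2 fold change in Myc against vector lymphomas by class of transcript length in bases, for members, all protein-coding genes, and genes that are neither members nor ribosomal protein genes. Length is the longest principal transcript on the left and the median transcript on the right. In the class of up to 600 bases members and all genes are at 1.56 and 1.53 on the left, and at 1.51 and 0.94 on the right.

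Other measures also moved with the groups. The share of reads with several alignments was 14.3 to 17.9% in normal samples, 15.4 to 31.3% in vector lymphomas and 22.2 to 40.3% in Myc lymphomas, with the highest share in Myc replicate 5. The summed level of 6 erythroid markers was 215 to 3156, 3449 to 17913 and 5359 to 72488 CPM in the 3 groups, of which 1 marker rose in Myc against vector, and none of the 6 was at 0. The 8 neutrophil markers summed to 76.4 to 899, 53.2 to 5752 and 1601 to 16446 CPM, and 5 rose. Markers of NK and cytotoxic cells summed to 152 to 239, 31 to 73.1 and 153 to 620 CPM, and 6 of 7 rose. Of 9 T cell markers 3 rose and 2 fell, of 6 plasmacytoid dendritic markers 3 rose and 1 fell, and of 7 macrophage markers 1 rose and 1 fell. All 5 dissociation response genes fell. Myc replicate 5 had the highest erythroid level. The part of these cells and of sample handling in the members' differences was not tested.

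Genes of the same pathway outside the symbol rule were measured in the same fit. In complex II, which feeds electrons from succinate, Sdhb (0.97 ± 0.25, edgeR adjusted p = 0.003), Sdhc (0.98 ± 0.19, adjusted p = 0.00033) and Sdhd (1.14 ± 0.20, adjusted p = 0.00016) rose in Myc against vector, and the flavoprotein Sdha was not called (0.25 ± 0.11, adjusted p = 0.071). Cytochrome c1 (Cyc1, 0.96 ± 0.23) and the electron carrier cytochrome c (Cycs, 0.88 ± 0.31) both rose. Of 39 assembly factors outside the rule, 21 rose and 0 fell, with a median of 0.52, among them the haem-modifying enzyme Cox10 (1.01, adjusted p = 2e-05), which was also called within the earlier runs (1.06, adjusted p = 0.036).

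Atpif1, which inhibits ATP synthase when it runs backwards, was at 34.9, 63.5 and 89.2 CPM in vector lymphomas and at 128, 193 and 925 CPM in Myc lymphomas. The groups did not overlap. It rose by 2.14 ± 0.36 against vector (edgeR adjusted p = 8.4e-05) and by 2.91 against normal (adjusted p = 0.00017).

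The 13 mitochondrially encoded genes all rose in Myc against vector (median 2.40), and their levels were also far apart between vector lymphomas of the later and earlier runs. They held 0.696 to 6.09% of gene counts in normal samples, 0.304 to 7.65% in vector lymphomas and 6.44 to 21% in Myc lymphomas, and vector replicates 7 and 8 were at 7.65 and 6.1%. Their mean level relative to the 20 samples was -2.69 in vector replicates 1 to 6 and 1.23 in vector replicates 7 and 8, a wider gap than the -0.64 and 0.03 of the nuclear subunits. Against normal samples 1 of the 13 rose.

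Of 13 nuclear regulators of mitochondrial genes, 1 rose and 5 fell in Myc against vector (median -0.31). Ppargc1a, a coactivator of mitochondrial gene expression, was at 0.284, 0.934 and 2.49 CPM in vector lymphomas and at 0, 0.0775 and 0.521 CPM in Myc lymphomas, with overlap (log2 fold change -2.88 ± 0.61, edgeR adjusted p = 0.00069). Nrf1, whose motif was counted above, fell by 0.43 (SE 0.12, adjusted p = 0.0066), but within the earlier runs its log2 fold change was 0.02 (adjusted p = 0.96). Gabpa, the DNA-binding part of GABP (-0.13, adjusted p = 0.67), Tfam, which packages mitochondrial DNA (-0.13, adjusted p = 0.36), Pprc1 (0.36, adjusted p = 0.13) and Ppargc1b (-0.31, adjusted p = 0.35) were not called.

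Near-identical genes can take or split reads of these short transcripts. By at least 95% identity over 50% of the transcript, 13 members had such a gene, most often a processed pseudogene. Of the 12 tested among them 9 rose in Myc against vector, and of the 76 others 63 rose. Exons of 25 members overlapped another gene, of which 20 rose, against 52 of the 63 without overlap. The median log2 fold change was 1.35 for members with a near-identical gene and 1.17 for those without. It was 0.95 for members with shared exons and 1.25 for those without. The part of such reads in the members' differences was not tested.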

How the data were processed

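RNA was sequenced from 20 samples of 3 groups. The deposited values are raw counts per Ensembl gene (37620 genes) with no scaling by the authors that the labels record. BWA 0.7.5a, HTSeq and Picard 1.119 are named, per the submitters' processing notes, with the builds mm9 and NCBIM37. Whether counting used strand is not given. Lines for reads assigned to no gene were left out, and 37.1 to 57% of listed reads were counted to genes.

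Members, lists and tests were chosen with earlier results of these data known. Symbols and transcript lengths came from GENCODE M21. Genes were filtered with filterByExpr (17824 kept), scaled by TMM and tested in 1 fit of 20 samples with edgeR 4.0.16 (R 4.3.3), two-sided, with Benjamini-Hochberg adjustment over all tested genes. SE is the absolute log2 fold change over the root of F. Log2 CPM used a prior count of 2. On simulated counts, 54 of 100 genes changed by a log2 of 1 were found, with 7 false calls among 17609. Genes were drawn separately there, with no run difference and no sample apart from its group. These rates therefore need not hold for the real counts. Named were the 3 subunits with the smallest and 2 with the largest p per complex for Myc against vector, the 2 with the smallest p for the other comparisons, and a fixed set. Alternatives were DESeq2 1.42.0, limma 3.58.1 voom, other scalings, filters and samples, and a second transcript length added after the first was seen.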

Additional observations from a re-analysis of the deposited data

Results flagged for a closer look

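Groups of 4 and 8 samples were searched for a sample apart from the rest (the gap to its nearest neighbour divided by the range of the group, above Dixon's 95% critical value). Of 123 such groups 29 had one. Chance gives about 1 in 20 for separate groups, but these groups share the same 20 samples, so the count cannot be set against it. In 21 of the 29 the sample was Myc replicate 5. Its level (log2, relative to the 20 samples) was 2.23 in complex I, 2.18 in complex III, 2.57 in complex IV and 2.03 in complex V, beside 0.68, 0.76, 0.84 and 0.65 in the next Myc lymphoma.

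The same sample was far above the other Myc lymphomas in log2 CPM for subunits of complexes I and III: Ndufb7 8.07, Ndufs8 7.63, Uqcr11 7.91, Uqcrfs1 8.11, Uqcrh 9.40 and Uqcrq 8.43. In complex IV these were Ndufa4 8.25, Cox4i1 10.59, Cox5a 8.24, Cox5b 8.28, Cox6b1 9.30, Cox7a2 8.28, Cox7a2l 8.65 and Cox8a 9.76, and in complex V Atp5d 9.25, Atp5g2 5.82 and Atp5o 9.22. Ndufs8, Ndufb7, Atp5d, Atp5g2 and Cox7a2l are among the members not called in Myc against vector.

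In the normal group, replicate 1, the 1 normal sample of the later runs, was far below the others in log2 CPM for Atp5g1 (2.28), Atp5o (5.16), Cox5b (4.75), Cox6a1 (6.41), Cox6a2 (-0.23) and Cox8a (5.44). Normal replicate 4 was above the others for Cox6b1 (6.02 beside 5.87), and normal replicate 3 for Ndufa4l2 (-3.59), where the other normal samples had no count.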

How the results depend on the processing

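No paired analysis was possible because replicate numbers only name samples in accession order and pair none. Counts of members and subunits below stand without the share of all genes called in the same fit, unless that share is stated above.

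Myc against vector had no member that fell under any alternative run. With the earlier runs only, 1 member rose, and 0 subunits of complexes I, III, IV and V; with a run term the counts were 22 members and 8, 5, 2 and 5 subunits. Tested against a fold of 1.5, 5 subunits of complex III and 7 of complex V rose. Leaving out each sample gave 65 to 73 members (medians 0.78 to 1.32).

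In Myc against normal, 29 members rose with the earlier runs only (complexes I, IV and V: 13, 5 and 5), 32 with an instrument term (15, 5 and 5) and 30 against a fold of 1.5 (complexes I, III and V: 13, 4 and 5). Leaving out each sample gave 43 to 66 members and, for complex IV, 5 to 11 subunits.

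In vector against normal the rise of 1 member became 3 with DESeq2 and with only the 2 groups compared, 2 with limma voom, and 0 with the earlier runs or subunits only. Complex I then had 1 risen subunit with DESeq2, limma voom and only the 2 groups, and complex III 1 with only the 2 groups. The 1 fall became 0 with the earlier runs, a run or instrument term, a fold of 1.5, no filter on low counts, and subunits only. Leaving out each sample gave 1 to 4 risen and 0 to 1 fallen members, and 0 to 2 risen subunits of complex I. The median of complex IV was 0.49 in the earlier runs. The cause of these shifts was not tested, beyond there being fewer samples within the earlier runs.

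The second transcript length moved the median of all protein-coding genes of up to 600 bases in Myc against vector from 1.53 to 0.94. It was chosen after seeing the data. By that transcript 16 members, not 13, had a near-identical gene.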
